A study of Mus musculus with 8 samples.

Results

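The 10 genes described here are the fibroblast growth factor (FGF) ligands *Fgf1*, *Fgf2*, *Fgf5*, *Fgf7*, *Fgf10*, *Fgf18* and *Fgf21* and the receptors *Fgfr1*, *Fgfr2* and *Fgfr3*, taken by gene name from the gene probes of a whole-genome mouse array. They have 20 probes out of 41174, and the array names 28478 genes. Transcript levels were measured in mouse embryonic fibroblasts (MEFs), mixed mesenchymal cells grown out of whole embryos, that were Lats2-/- or Lats2+/+. Lats2 is a kinase of the Hippo pathway, and the comparison asks how its loss affects the MEF transcriptome. The labelled strain of all cells is C57BL/6J, and they were grown in DMEM with serum and left untreated. The 3 litters, numbered 112, 116 and 121, each gave 1 Lats2-/- and 1 Lats2+/+ RNA extract with a clone name of its own, which makes 6 extracts. Embryo age is not given in the labels. Each of the 8 two-colour arrays held both extracts of 1 litter, with 2 dye-swapped arrays for litters 112 and 116 and 4 for litter 121. The 4 arrays of litter 121 are labelled as 2 repeats with dye swaps, under the same clone names. Whether the repeats used separate RNA is not given, and they were taken as the same extracts. Litters 112 and 116 lay on 1 slide and litter 121 on the other.

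FGFs are secreted signals that bind receptor tyrosine kinases together with heparan sulphate chains on the cell surface. The bound receptors dimerise and signal through Ras, Raf and the MAP kinases ERK1 and ERK2. This raises immediate early genes, Ets factors and, in turn, inhibitors of the pathway such as the Sprouty proteins and dual-specificity phosphatases. Fibroblasts and mesenchyme are classical sources of FGF7 and FGF10, which act on the epithelial splice form of FGFR2, while FGF21 is an endocrine member that needs the co-receptor beta-Klotho. The probes were not assigned to splice forms here.

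Of the 10 genes, 8 had a probe that passed the filter on low signal, which asked for 2 or 3 of a genotype's 3 extracts to be well above background. *Fgf1* and *Fgf21* did not pass. No FGF gene reached an adjusted p under 0.05 in limma's test of the 3 litter ratios, and the share that did was 0.00% of all 15145 genes that passed the filter, each read by its brightest kept probe. The adjusted p-values of the 8 genes ran from 0.711 to 0.972, and the smallest over all kept probes was 0.633. Before adjustment, 2 of the 8 FGF genes were under 0.05, *Fgf10* with a lower level and *Fgf18* with a higher level in Lats2-/-, against 7.50% of all genes. *Fgf10* was no longer under 0.05 without litter 116 (mean log2 ratio -0.41) or without litter 121 (-0.59), and *Fgf18* without litter 112 (0.52) or without litter 116 (0.47). With the methods' t-test on the litter values neither was under 0.05, and *Fgf10* was not with median centring in place of loess or with the extracts unpaired. None of the 8 combined a mean change of 2-fold or more with a p under 0.05 before adjustment, a rule that 1.07% of all genes met. The 3 litters gave 1 sign for *Fgf10*, *Fgf18* and *Fgfr3*, which is 3 of 8 against 30.0% of all genes. This takes litter 121 as labelled, although *Lats2* probes there gave 0.80 to 1.17, against the label, and -0.56. With the sign of litter 121 turned, these genes would not have 1 sign, whereas *Fgfr1* and *Fgfr2* would. Whether the labels of that litter hold was not tested. The median log2 ratio of Lats2-/- over Lats2+/+ was 0.07 over the 8 FGF genes and 0.01 over all genes.

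Single litters held larger differences than the means. In litter 112, 1 of the 8 FGF genes differed by at least 2-fold between its Lats2-/- and Lats2+/+ extracts, against 4.54% of all genes. In litter 116, 3 of 8 did, against 9.09%, and in litter 121, 3 of 8 did, against 7.14%. The genes were *Fgf5* in all 3 litters, *Fgf7* and *Fgf10* in litter 116 and *Fgf7* and *Fgfr2* in litter 121. The offset of 50 added to each signal draws the ratios of dim probes towards 0. With the processed signals of the scanner files, *Fgf18* was also past 2-fold in litters 112 and 116 (1.19 and 1.2), and *Fgfr3* in litter 116 (-1.07). The share over all genes was not counted with those signals. Arrays of the same litter, which were taken to hold the same extracts, gave close values. Over the kept FGF probes the range between arrays of a litter was 0.11 in the median, on the log2 scale, and reached 0.52. A difference within a litter rests on 1 embryo culture of each genotype and has no biological replicate. In bulk RNA, fewer cells of a type and less RNA per cell cannot be told apart.

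**Figure D1:**
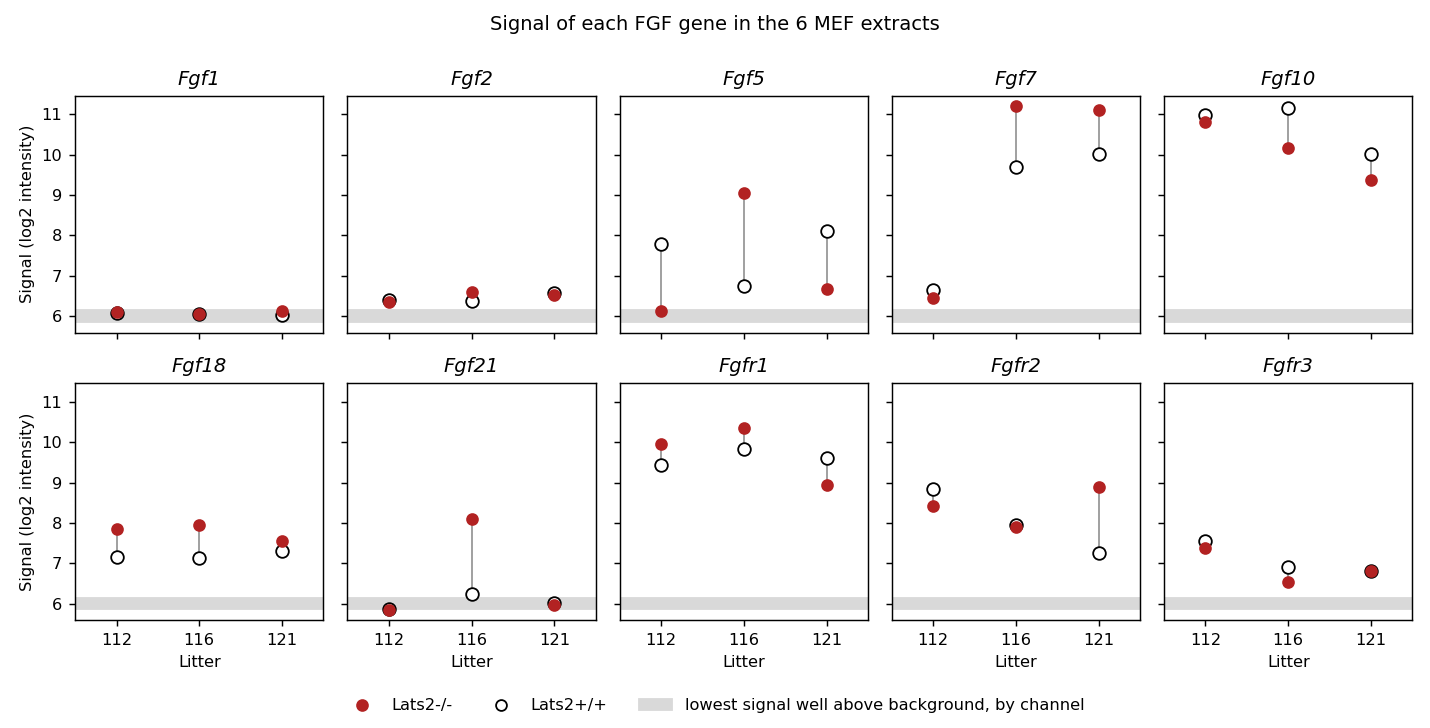
Log2 signal (vertical axis) of the brightest probe of each FGF gene in the Lats2-/- extract (red) and the Lats2+/+ extract (open) of litters 112, 116 and 121, with the range over arrays of the lowest signal called well above background in grey. *Fgf7* lies between 6.46 and 6.65 in litter 112 and at 9.69 or above elsewhere, and *Fgf21* rises above the grey band in litter 116 alone. Panels are not to be compared in height, since probes differ in brightness for the same amount of RNA.

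*Fgf10*, the mesenchymal ligand that drives limb and lung budding, was lower in Lats2-/- MEFs in each litter. Its log2 signal was 10.81, 10.15 and 9.36 in Lats2-/- and 10.97, 11.16 and 10.02 in Lats2+/+ (litters 112, 116 and 121, in this order here and for the genes that follow). Within every litter the Lats2-/- extract was the lower one, although the ranges of the genotypes overlapped because litter 121 was low in both. Its Lats2-/- level was 89.6%, 49.6% and 63.5% of its littermate, and the ratio was below 0 on 8 of 8 arrays. The mean log2 ratio was -0.61 ± 0.43 (SD, n = 3), with a 95% limma interval from -1.18 to -0.04 and an adjusted p = 0.711. Its probe maps to chr13:119910431-119910490 (mm8, plus strand).

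*Fgf18*, a ligand of bone, cartilage and lung mesenchyme, was higher in the Lats2-/- extract of each litter. Its log2 signal was 7.86, 7.95 and 7.55 in Lats2-/- and 7.15, 7.13 and 7.32 in Lats2+/+. The 3 Lats2-/- extracts all lay above the 3 Lats2+/+ extracts. Of the 8 FGF genes, 1 had genotypes that did not overlap, against 6.22% of all genes. The log2 ratios were 0.71, 0.82 and 0.23. The mean was 0.59 ± 0.31 (SD, n = 3), a 1.5-fold higher level, with an interval from 0.13 to 1.04 and an adjusted p = 0.711. In litter 121 the 4 arrays gave 0.14, 0.51, -0.02 and 0.29, so that 7 of 8 arrays in all were above 0. With the processed signals the litter ratios were 1.19, 1.2 and 0.29, with a mean of 0.89. The probe maps to chr11:33017441-33017500 (mm8, minus strand).

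The RefSeq sequences upstream of the starts of *Fgf10*, *Fgf18* and *Fgf7* are given with every CpG in capitals. They are the 250 bases before the start (GRCm38.p6, 5′ to 3′ on the gene's strand). The first lies at chr13:118714449-118714698 on the plus strand, the second at chr11:33147401-33147650 on the minus strand and the third at chr2:126034408-126034657 on the plus strand.
Fgf10: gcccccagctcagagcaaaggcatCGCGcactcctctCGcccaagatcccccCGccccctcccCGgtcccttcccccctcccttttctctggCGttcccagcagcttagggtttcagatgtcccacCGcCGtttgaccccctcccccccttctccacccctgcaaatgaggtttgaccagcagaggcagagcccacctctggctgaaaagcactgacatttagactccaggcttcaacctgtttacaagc
Fgf18: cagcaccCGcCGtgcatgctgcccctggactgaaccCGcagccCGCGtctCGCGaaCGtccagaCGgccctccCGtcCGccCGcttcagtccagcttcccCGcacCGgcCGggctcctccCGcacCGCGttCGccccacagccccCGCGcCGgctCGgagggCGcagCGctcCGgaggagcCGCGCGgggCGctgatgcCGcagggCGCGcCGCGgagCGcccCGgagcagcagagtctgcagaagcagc
Fgf7: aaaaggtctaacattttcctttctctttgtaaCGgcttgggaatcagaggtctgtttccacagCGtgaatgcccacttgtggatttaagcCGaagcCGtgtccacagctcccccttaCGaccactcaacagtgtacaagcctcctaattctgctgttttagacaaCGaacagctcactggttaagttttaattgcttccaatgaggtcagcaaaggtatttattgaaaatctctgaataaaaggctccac
They hold 8, 37 and 6 CpG, against a median of 6 over the 32851 entries of the table, and *Fgf18* has more than 97.8% of entries. Their GC content is 61.2%, 77.2% and 43.6%, against a median of 52.4%. Neither the TEAD letters GGAATG, which are the binding core of the factors that partner YAP downstream of LATS kinases, nor the AP-1 letters TGANTCA occur on either strand in these windows or in those of the other 5 FGF genes with an entry. Over all entries, 12.6% hold the former and 6.75% the latter.

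*Fgf7*, the keratinocyte growth factor, varied more between litters than between genotypes. The log2 signal was 6.46, 11.19 and 11.11 in Lats2-/- and 6.65, 9.69 and 10.01 in Lats2+/+. Both extracts of litter 112 were low and the other 4 were high, whatever the genotype, with 3.04 between the highest extract of litter 112 and the lowest of the rest. A litter set apart by over 3 in this way occurred for 0.112% of all genes. The cut of 3 lies just below the *Fgf7* gap and the pattern is that of *Fgf7*, so this share is a description. The mean log2 signal of litters 116 and 121 was 25.7-fold above litter 112 in Lats2-/- and 9.19-fold above it in Lats2+/+. All 6 extracts were well above background on every array. The signals of litter 112 lay near the lowest signal called well above background, which was 5.87 to 6.15 over the channels. They include the offset of 50, which makes both folds smaller.

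Between genotypes, the *Fgf7* log2 ratios were -0.19, 1.49 and 1.1. The Lats2-/- extract thus had 2.82-fold and 2.14-fold the level of its littermate in the litters where the gene was high, and 87.8% of it where the gene was low. The mean was 0.80 ± 0.88 (SD, n = 3), with an interval from -0.27 to 1.87 and an adjusted p = 0.731. Without litter 112 the mean of the other 2 litters was 1.30, which was past 2-fold and, before adjustment, under 0.05, with an adjusted p = 0.889 in limma. It was 0.45 without litter 116 and 0.65 without litter 121, neither under 0.05 before adjustment. Litters 112 and 116 shared a slide, so the low level of *Fgf7* in litter 112 ran within a slide. The probe maps to chr2:125780852-125780911 (mm8, plus strand).

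*Fgf5*, a ligand that ends the growth phase of the hair follicle, went in opposite directions in different litters. Its log2 signal was 6.14, 9.04 and 6.68 in Lats2-/- and 7.79, 6.76 and 8.10 in Lats2+/+. The highest of all 6 extracts was Lats2-/- of litter 116, followed by Lats2+/+ of litters 121 and 112, so that the genotypes overlapped. The ratios were -1.66, 2.28 and -1.42, and the arrays of a litter differed by at most 0.28. The Lats2-/- extract of litter 112 was not well above background on either array, so its value there is a bound, at least 2.98-fold lower than its littermate.

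Over all litters the *Fgf5* ratio had a mean of -0.26 ± 2.20 (SD, n = 3), with an interval from -2.88 to 2.35 and an adjusted p = 0.965. The SD is large beside the median SD of 0.27 over all genes, and a change of at least 2-fold in each litter with mixed signs occurred for 0.436% of all genes, 1 of them *Fgf5*. The mean followed the choice of litters: it was 0.43 without litter 112, 0.31 without litter 121 and -1.54 without litter 116. With the processed signals, litters 116 and 121, where the brighter genotype was set against a measured one, gave 3.38 and -2.57, and the mean of all 3 litters was -1.50. The means use the measured dim signal of litter 112, where the difference is a bound. The probe maps to chr5:98517263-98517322 (mm8, plus strand).

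*Fgf21*, the endocrine ligand known as a product of liver and of stressed cells, was above background in 1 of the 6 extracts. On its brighter probe the log2 signal was 5.86, 8.11 and 5.98 in Lats2-/- and 5.88, 6.24 and 6.02 in Lats2+/+. Only the Lats2-/- extract of litter 116 stood out, and the second probe showed the same with 5.96, 7.11 and 6.07 against 6.12, 6.22 and 6.09. In litter 116 the Lats2-/- level was at least 3.64-fold that of its littermate on the first probe and at least 1.85-fold on the second. The gene did not pass the filter and was not tested. *Klb*, which encodes beta-Klotho, was above background in 4 of 6 extracts, and its mean log2 ratio was 0.02 ± 0.04 (SD, n = 3) with an adjusted p = 0.972.

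The 250 bases before the RefSeq start of *Fgf21* (GRCm38.p6, chr7:45615491-45615740, minus strand) are shown because this gene was read in 1 extract and its promoter holds recognisable elements. Capitals mark a TATA box, TATAAA, and the letters of the ATF4 element TGATGCAAT, matched on the opposite strand and searched for after the sequence was seen.
Fgf21: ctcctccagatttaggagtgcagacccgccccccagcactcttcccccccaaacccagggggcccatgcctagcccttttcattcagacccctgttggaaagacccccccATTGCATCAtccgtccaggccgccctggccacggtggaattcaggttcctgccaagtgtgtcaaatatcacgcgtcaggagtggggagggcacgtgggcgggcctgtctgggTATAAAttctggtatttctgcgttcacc
The TATA letters start 28 bases before the start site and occur on either strand in 12.4% of all entries. The ATF4 letters start 140 bases before it and occur in 0.167%. The other FGF windows hold neither. These are matches of letters, and binding was not measured.

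*Fgf2*, basic FGF, which fibroblasts in culture both make and respond to, was dim. On its brighter probe the log2 signal was 6.35, 6.61 and 6.52 in Lats2-/- and 6.40, 6.39 and 6.59 in Lats2+/+, with 2 of 3 extracts of each genotype above background. The genotypes overlapped, and the mean log2 ratio was 0.03 ± 0.16 (SD, n = 3) with an interval from -0.30 to 0.35, and the mean was -0.07 without litter 116. The second probe, whose mapped positions on chromosome 3 run from 37540561 to 37587780 in mm8, far more than the 60 bases of most probes, gave 0.05 ± 0.15 (SD, n = 3). *Fgf1*, acidic FGF, was above background in no extract on either of its 2 probes, with log2 signals from 6.04 to 6.14 on the brighter one. A difference in *Fgf1* was not detectable on these arrays.

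**Figure D2:**
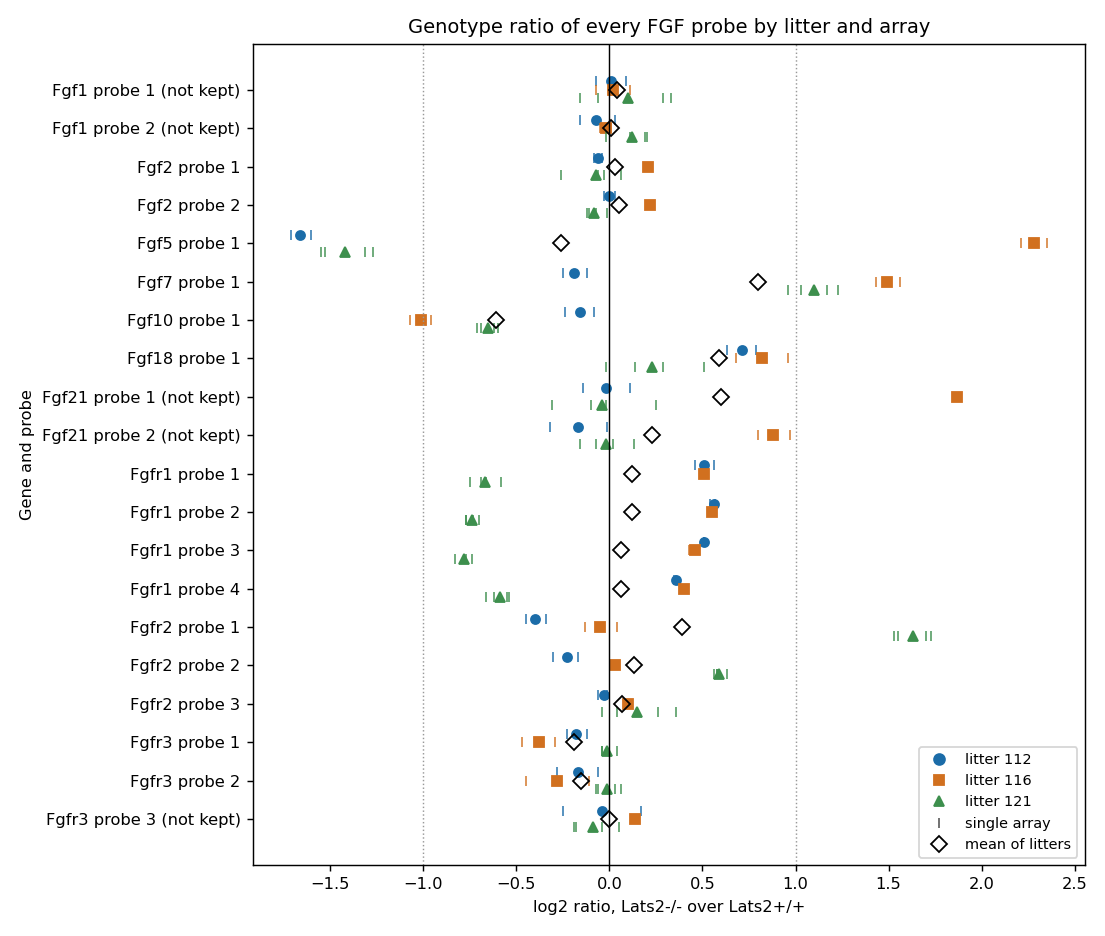
Log2 ratio of Lats2-/- over Lats2+/+ (horizontal axis) for all 20 FGF probes, with litters as filled symbols, single arrays as ticks and the mean of the litters as an open diamond; dotted lines mark 2-fold. Arrays of a litter lie close together, whereas *Fgf5* spans -1.66 to 2.28 between litters and the 4 *Fgfr1* probes fall on opposite sides of 0 in litter 121 and in the other litters.

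Among the receptors, *Fgfr1*, the main FGF receptor of mesenchyme, was higher in Lats2-/- in litters 112 and 116 and lower in litter 121. On its brightest probe the log2 signal was 9.95, 10.34 and 8.94 in Lats2-/- and 9.44, 9.83 and 9.61 in Lats2+/+. The Lats2+/+ extracts lay close together, and the Lats2-/- extracts held both the highest and the lowest value. The ratios were 0.51, 0.51 and -0.67, or 142%, 142% and 62.9% of the littermate. All 4 probes, from position 26997829 to 27039195 of chromosome 8 (mm8, plus strand), gave the same signs, with 0.36 to 0.56 in litters 112 and 116 and -0.78 to -0.59 in litter 121. The mean was 0.12 ± 0.68 (SD, n = 3), with an interval from -0.73 to 0.96 and an adjusted p = 0.949. The litter with the opposite sign is also the only one on its slide, so litter and slide cannot be told apart here. It is also the litter where *Lats2* probes gave 0.80 to 1.17, against its label, and -0.56. With its sign turned, *Fgfr1* would have 1 sign in all litters, which was not tested. Within the slide of litters 112 and 116 the mean was 0.51, under 0.05 before adjustment and with an adjusted p = 0.733 in limma, and without litter 112 or without litter 116 it was -0.08.

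*Fgfr2*, the receptor for FGF7 and FGF10 in epithelium in one splice form and for other ligands in mesenchyme in another, was 3.09-fold higher in the Lats2-/- extract of litter 121 and close to its littermate or below it in the others. The log2 signal of its brightest probe was 8.43, 7.91 and 8.89 in Lats2-/- and 8.83, 7.96 and 7.26 in Lats2+/+. In litter 121 the 2 genotypes were the highest and the lowest of all 6 extracts, and the ranges overlapped. The ratios were -0.40, -0.05 and 1.63, with a mean of 0.39 ± 1.08 (SD, n = 3), an interval from -0.91 to 1.70 and an adjusted p = 0.871. Without litter 121 the mean of the other litters was -0.22, in the opposite direction, and it was 0.79 without litter 112 and 0.62 without litter 116. Litter 121 thus had lower *Fgfr1* and higher *Fgfr2* in its Lats2-/- extract, on 4 of 4 arrays for each brightest probe.

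The 3 *Fgfr2* probes did not give 1 size of difference. The brightest probe (chr7:129954346-129954405, mm8, minus strand) gave 1.63 in litter 121, and the second (chr7:129955089-129955148) gave 0.59, a difference of 1.04. The third, at chr7:130033600-130033659, gave 0.15 and was above background in 2 of 3 Lats2-/- and 1 of 3 Lats2+/+ extracts. With the processed signals, the values in litter 121 were 2.21, 1.70 and 0.97, and the gap between the first and the second was 0.51. All 3 probes had the same sign in litter 121 under both.

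*Fgfr3*, a receptor best known as a brake on growth plate cartilage, was slightly lower in Lats2-/- in 3 of 3 litters. Its log2 signal was 7.38, 6.54 and 6.81 in Lats2-/- and 7.55, 6.92 and 6.82 in Lats2+/+. The genotypes overlapped, and in litter 121 they were nearly equal. The ratios were -0.18, -0.38 and -0.01, with a mean of -0.19 ± 0.19 (SD, n = 3), an interval from -0.53 to 0.16 and an adjusted p = 0.768. The size was not steady: the mean was -0.09 without litter 116 and -0.51 with the processed signals, neither under 0.05 before adjustment. The second kept probe gave -0.15 ± 0.13 (SD, n = 3), and the third was above background in no extract.

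**Figure D3:**
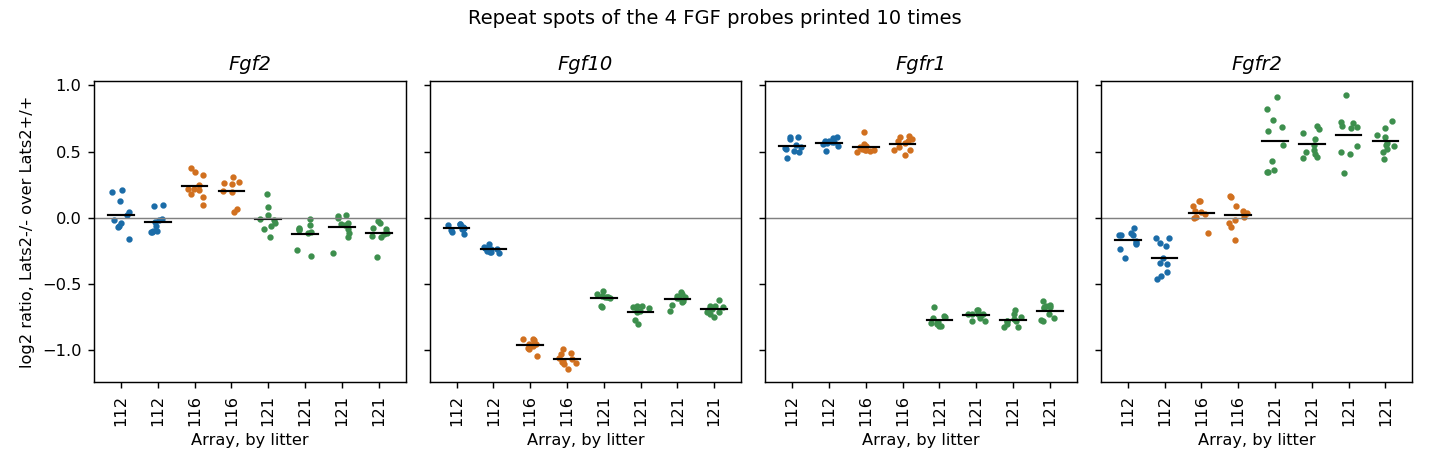
Log2 ratio of Lats2-/- over Lats2+/+ (vertical axis) in single spots of the 4 FGF probes printed 10 times per array, for the 8 arrays grouped by litter (colours), with the array mean as a bar. The spots of *Fgfr1* lie near 0.55 in litters 112 and 116 and near -0.74 in litter 121, with no overlap.

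Probes for *Fgf2*, *Fgf10*, *Fgfr1* and *Fgfr2* were each printed 10 times on an array, which measures the error of a spot. The SD between repeat spots of an array was 0.02 to 0.05 for *Fgf10* and 0.03 to 0.05 for *Fgfr1*, and larger for the dimmer probes, at 0.08 to 0.12 for *Fgf2* and 0.07 to 0.21 for *Fgfr2*. The litter ratios ranged over 0.85 for *Fgf10*, 1.30 for *Fgfr1*, 0.82 for *Fgfr2* and 0.30 for *Fgf2*, which are differences between single embryo cultures and have no replicate within a litter.

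Genes around the FGF receptors were read as 6 lists with 87 genes, of which 84 were on the array by name and 68 had a kept probe. Before adjustment, 10 of the 68 were under 0.05, 9 higher and 1 lower in Lats2-/-, which is 14.7% against 7.50% of all genes. None passed after adjustment, and the median log2 ratio of the 68 was 0.08 against 0.01 over all genes. The lists were chosen with earlier results of these data known, so the share under 0.05 is a description. Its count was 2 with the methods' t-test, 20 with the slide and 21 with the litter as a random block over arrays. The 10 were 3 of 23 signal transducers, 3 of 9 feedback inhibitors and 4 of 9 transcription factors or cell cycle genes that FGF signals induce, with 0 of 3 other ligands, 0 of 14 other receptors and co-receptors and 0 of 10 heparan sulphate enzymes.

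Of the feedback inhibitors, *Dusp4*, a phosphatase that inactivates ERK in the nucleus, had litter ratios of 1.17, 1.44 and 1.81 (log2), with a mean of 1.48 ± 0.32 (SD, n = 3) and an adjusted p = 0.633. *Il17rd*, or Sef, a membrane inhibitor of FGF receptor signalling, had 0.79, 2.02 and 1.08, with a mean of 1.30 ± 0.64 (SD, n = 3) and an adjusted p = 0.711. *Spry1*, a Sprouty inhibitor of Ras and ERK signalling, had 0.20, 0.39 and 0.54. These were higher in Lats2-/- in every litter. Other inhibitors of the same list were not: *Spry2* had 1.32, -0.20 and -0.32, *Spry4* had 0.11, 0.49 and -0.50, and *Dusp6*, the phosphatase of cytoplasmic ERK, had -0.01, -0.54 and 0.82.

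The FGF-induced genes were split. *Fos*, *Egr1* and *Ier2*, immediate early genes, had mean log2 ratios of 2.95 ± 2.20, 2.71 ± 1.80 and 1.54 ± 0.97 (SD, n = 3), with adjusted p = 0.711 for each, and were higher in Lats2-/- in every litter. For *Fos* the litters gave 5.43, 2.19 and 1.24, and for *Egr1* 4.39, 2.93 and 0.81, with litter 112 the highest in both. Others of the early genes lay below 0 in the mean, with -0.05, -1.58 and -1.06 for *Myc* (mean -0.89, adjusted p = 0.711) and 0.76, -1.72 and -1.28 for *Fosl1* (mean -0.75, adjusted p = 0.797). *Ccnd1*, which encodes cyclin D1, was lower in each litter, with a mean of -0.43 ± 0.16 (SD, n = 3) and an adjusted p = 0.711. The Ets factors that FGF signals induce had means of -0.17 for *Etv1*, -0.94 for *Etv4* and -0.50 for *Etv5*, none under 0.05 before adjustment. *Etv4* had -0.20, -0.65 and -1.96 and *Etv5* had -0.33, -1.06 and -0.10, lower in each litter. *Etv1* was mixed, with 0.99, -1.89 and 0.39. The median of the 9 genes was -0.43.

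Among the signal transducers, the mean log2 ratio of *Gab1*, an adaptor of receptor signalling, was 0.51 ± 0.28 (SD, n = 3). *Mapk3*, which encodes ERK1, had 0.54 ± 0.24 (SD, n = 3), and *Plcg1*, the phospholipase that FGF receptors bind directly, had 0.47 ± 0.27 (SD, n = 3). All 3 had an adjusted p = 0.711 and 1 sign in 3 litters. Of the heparan sulphate enzymes, *Sulf1*, a sulphatase that trims the chains FGFs bind, had 3.77, 1.23 and 0.43 with a mean of 1.81 ± 1.74 (SD, n = 3) and an adjusted p = 0.716. Of the 14 other ligands on the array, 9 were above background in no extract. *Fgf9*, named after its values were seen, was above background in 1 extract, the Lats2-/- extract of litter 121. Its log2 ratio there was 2.80, with the Lats2+/+ extract well above background on 2 of 4 arrays, and the gene was not tested.

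**Figure D4:**
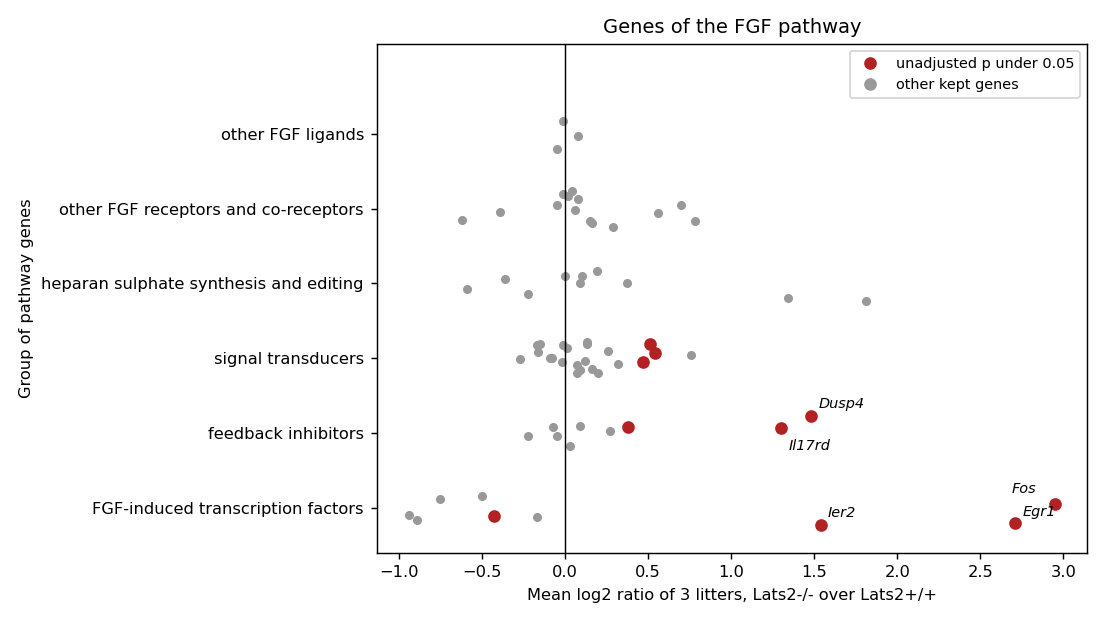
Mean log2 ratio of 3 litters, Lats2-/- over Lats2+/+ (horizontal axis), for the 68 kept pathway genes in 6 lists (rows; height within a row is arbitrary), with genes under 0.05 before adjustment in red. *Fos* at 2.95 and *Egr1* at 2.71 lie farthest to the right, and most of the grey genes lie near 0.

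The patterns over the 6 extracts were described for the 3 FGF genes with the widest range of signal among those above background in all extracts, which were *Fgf7* with 4.72, *Fgf10* with 1.80 and *Fgfr2* with 1.63 on the log2 scale. Candidates were 5826 probes above background in all 6 extracts with a range of at least 1. Nearest to *Fgf7* were *Grn*, which encodes progranulin, with a Pearson r of 0.998, *Ppox*, an enzyme of haem synthesis, with 0.983, and *Spry1* with 0.981. *Spry1* had log2 signals of 9.33 and 9.13 in litter 112 and 10.80 to 11.54 in the other litters, low in the same 2 extracts as *Fgf7*. Nearest to *Fgf10* were *Steap1* with 0.997, *Adsl* with 0.996 and *9130401M01Rik* with 0.994. Nearest to *Fgfr2* were *Coil* with 0.984, *Cyp26b1*, which degrades retinoic acid, with 0.967, and *Zeb2* with 0.957. Each r is over 6 extracts that share litters and arrays, and was picked as the highest of 5826, so it is a description.

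**Figure D5:**
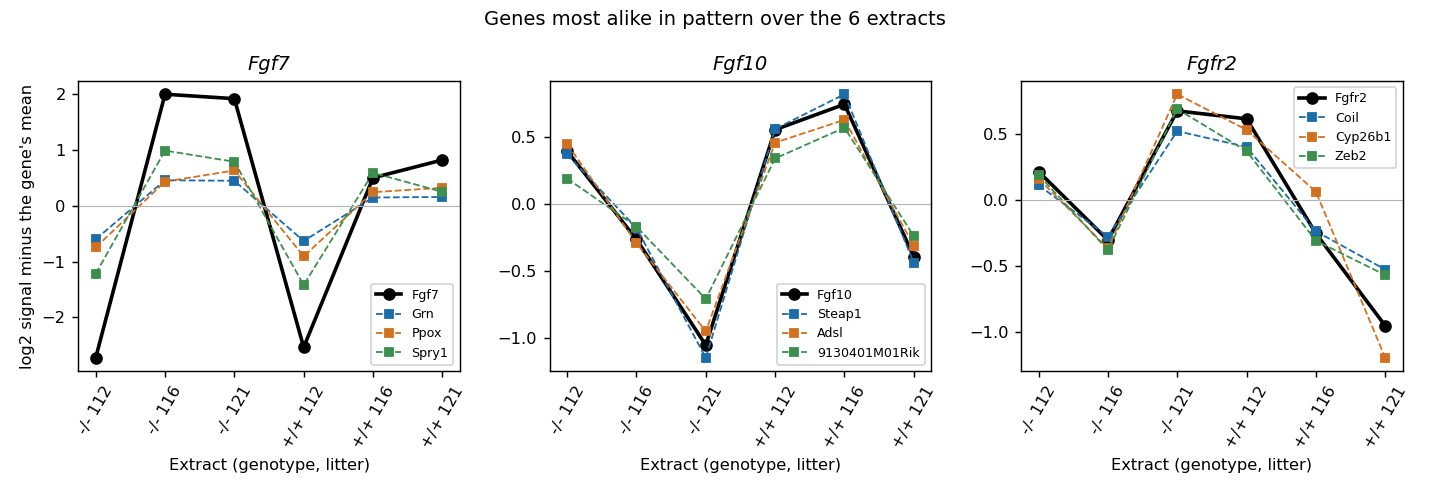
Log2 signal minus the gene's own mean over the 6 extracts (vertical axis) for *Fgf7*, *Fgf10* and *Fgfr2* (black) and the 3 genes nearest to each in pattern (colours), by genotype and litter. *Fgf7* and *Spry1* drop in both extracts of litter 112, and *Cyp26b1* and *Zeb2* peak with *Fgfr2* in the Lats2-/- extract of litter 121.

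The identity of the extracts was read from marker lists. Of 13 fibroblast and mesenchyme genes, 11 were above background in all 6 extracts, and their summed linear signal ran from 232014 to 519332 in Lats2-/- and from 207427 to 423400 in Lats2+/+. Above background in all 6 extracts were 1 of 9 epithelial, 0 of 6 endothelial, 1 of 8 macrophage and blood, 3 of 6 neural, 1 of 6 skeletal muscle, 1 of 4 mesothelial and 2 of 5 adipocyte markers. Summed signals ran from 667 to 1080 in Lats2-/- and from 669 to 708 in Lats2+/+ for epithelium, from 421 to 497 and from 428 to 467 for endothelium, and from 711 to 3968 and from 682 to 843 for macrophage and blood. They ran from 1043 to 7819 and from 947 to 2130 for the neural list, from 11977 to 37882 and from 1637 to 25963 for muscle (with 5 of its 6 genes above background in no extract), from 555 to 16913 and from 326 to 4285 for mesothelium, and from 478 to 3547 and from 635 to 919 for the adipocyte list. Every signal in these sums includes the offset of 50, so genes not above background add to them. The lists also differ in length and the probes in brightness, so the sums are not to be compared between lists.

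Fibroblast markers moved within litters in the same extracts as some FGF genes. In litter 121, where *Fgfr1* was lower and *Fgfr2* higher in Lats2-/-, 7 of the 13 fibroblast genes were at least 2-fold lower and 0 higher, with a median log2 ratio of -1.14 and a range from -4.96 for *Pdgfra*, whose Lats2-/- extract was well above background on 2 of 4 arrays there, to 0.07 for *Fn1*. In litter 116, where *Fgf5* and *Fgf21* were higher in Lats2-/-, 7 were at least 2-fold higher and 1 lower, with a median of 1.84 and a range from -1.19 for *Vim* to 6.21 for *Dcn*. Not all FGF genes moved with them: in litter 116 *Fgf10* was 2.02-fold lower in Lats2-/-, and *Fgf7* was higher in both litters 116 and 121, where the fibroblast medians had opposite signs. In litter 112 the median was 0.13, with 1 gene at least 2-fold higher and 0 lower. Single markers of other cell types differed as much within a litter. In litter 121 these were the neural marker *Nes* with 4.10, the other 3 kept neural markers lying between -0.09 and 0.40, and the macrophage marker *Lyzs* with 3.40, the other 3 kept markers of its list lying between -0.16 and -0.05. In litter 116 it was *Actc1* with 3.37, the only one of the 6 muscle genes above background in any extract. In litter 112 it was the adipocyte genes *Lpl* with 3.99 and *Pparg* with 2.66, while *Cebpa* was at -0.42, *Fabp4* at 0.32 and the remaining gene of the list was above background in no extract. Before adjustment, 3 of the 32 markers tested were under 0.05, or 9.38% against 7.50% of all genes, each with 1 sign in 3 litters. They were the fibroblast gene *Prrx1* with a mean of -0.67 ± 0.14, the epithelial gene *Krt19*, above background in 4 of 6 extracts, with 1.54 ± 1.05 and the mesothelial gene *Msln* with 1.82 ± 0.26 (SD, n = 3), with adjusted p = 0.711, adjusted p = 0.711 and adjusted p = 0.633. The other 3 mesothelial genes were above background in no extract. The part of cell composition in the FGF values was not tested. Of the 4 *Lats2* probes, the one farthest upstream (chr14:56676512-56676571, mm8, minus strand) gave -1.33, -1.05 and -0.56, lower in every Lats2-/- extract. The 3 others, between positions 56644080 and 56645305 of the same chromosome, gave -0.70 to -0.18 in litters 112 and 116 and 0.80 to 1.17 in litter 121, against the label of that litter. The sources used here do not give the deleted part of the gene, so which of the probes check the genotype is not known, and directions in litter 121 rest on its labels. The paper reports a western blot of Lats2 as a check of the knockout MEFs, and its legend names no litter.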

How the data were processed

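RNA from Lats2-/- and Lats2+/+ MEFs of 3 litters was hybridised by the authors on 8 two-colour Agilent arrays with dye swaps. The deposited scanner files hold intensity values per spot, extracted with Agilent's Feature Extraction (10.7.3.1 in the file headers, 10.5.1.1 in the submitters' processing notes), with mean and local background intensity in both channels and processed intensity after background subtraction and dye normalization. The deposited value table holds log10 ratios, which with the sign of swapped arrays turned matched the scanner log10 ratios of the processed intensity within 0.005, and so gives Lats2-/- over Lats2+/+. Median intensity per array was 60.9 to 68.2 in green and 83.1 to 94.2 in red, and 52.9% to 61.3% of probes were well above background.

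Mean intensity was background corrected (normexp, offset 50) and loess normalized with limma (3.58.1, R 4.3.3). Control spots and 860 outlier gene spots were dropped, and 0 gene spots were saturated. Repeat spots and then the arrays of a litter, 2, 2 and 4, were averaged to 1 log2 ratio per litter, so that n is 3 litters and the pairing lies within the array. Log2 signals per extract followed loess and Aquantile. Probes were kept if well above background in at least 2 of 3 extracts of a genotype (majority of an extract's arrays), which left 22642. Litter ratios were tested against 0 with lmFit and eBayes, two-sided, with Benjamini-Hochberg adjustment over these probes at 0.05. The number of litters limits the precision. The study's rule of at least 2-fold with p under 0.05 was read with the unadjusted p of limma and with the methods' t-test. Values written as at least N-fold set the brighter genotype against the higher of the dim probe's signal and the lowest signal well above background on the array.

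All 10 FGF genes and every probe were named. A gene was read by its brightest kept probe, and other probes are given where they add to it. Pathway genes were named if under 0.05 before adjustment, or at least 2-fold in mean with 1 sign in 3 litters, and members of the same list were set beside them for contrast. One epithelial gene listed under 2 names was counted once, which left 57 markers. The FGF genes, pathway lists and marker lists were chosen with earlier results of these data known. Promoter sequences and motif shares are from RefSeq (GRCm38.p6). Entries were found for 8 of the 10 genes. Probe positions are those in the files (mm8). Alternatives are listed under the dependence on processing.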

Additional observations from a re-analysis of the deposited data

How the results depend on the processing

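No FGF gene passed the adjusted threshold in any of the 13 alternative settings. None was past 2-fold with p under 0.05 before adjustment either, except 1 gene (*Fgf7*) without litter 112 and 1 (*Fgf5*) without litter 116, so that leaving out a litter gave 0 to 1. The number of FGF genes under 0.05 before adjustment ran from 0 with the methods' t-test to 3 with the litter as a random block over arrays. The 10 pathway genes under 0.05 became 21 with the litter as a random block, 20 with the slide as a random block and 2 with the methods' t-test. Those random blocks count arrays of the same extracts, with a consensus correlation of 0.869 for litter.

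The ratios of *Fgf7*, *Fgf10*, *Fgf18* and *Fgfr3* kept their sign in all 14 alternatives. *Fgf7* ran from 0.45 to 1.30, *Fgf10* from -0.83 to -0.41, *Fgf18* from 0.47 to 0.89 and *Fgfr3* from -0.51 to -0.09. Leaving out a litter moved *Fgf2* between -0.07 (without litter 116) and 0.08, *Fgf5* between -1.54 (without litter 116) and 0.43 (without litter 112; 0.31 without litter 121), *Fgfr1* between -0.08 (without litter 112 or 116) and 0.51, and *Fgfr2* between -0.22 (without litter 121) and 0.79, so that the sign of these 4 turned. *Fgfr1* was also at -0.08 with the slide as a random block. The cause was not tested. Without the replicate block, treating the extracts of a litter as unpaired, *Fgf10* had the same ratio of -0.61 with an adjusted p = 1 in limma. The filter on all 6 extracts removed *Fgf2* and *Fgf5*. With the processed signals the *Fgf2* mean was 0.19, against 0.03 in the main fit, and litter 116 gave 0.89. As the mean of all kept probes *Fgfr2* was at 0.20, against 0.39. Signal near background limits *Fgf1*, *Fgf2* and *Fgf21*.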
